A study of Rattus norvegicus with 74 samples.

Results

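The slow-fibre contractile genes described here are 10 genes whose products build the sarcomere and the calcium store of slow-twitch (type I) muscle fibres: Myh7, Myl2, Myl3, Tnni1, Tnnt1, Tnnc1, Tpm3, Atp2a2, Casq2 and Myoz2. They were chosen by name for their known role in slow fibres, with earlier results of these data known, and each of the 10 symbols matched 1 of 30560 genes in the count tables. The series holds 74 RNA libraries from male wild-type Wistar Kyoto rats, 9 weeks old at sampling. The study looks for nuclear-encoded transcripts within muscle mitochondria and at how exercise training affects them. Trained rats (ExT) began treadmill running when 5 weeks old and ran 5 days per week over 4 weeks, for up to 60 min at 20 m/min, and tissue was collected 24 h after the final session. Sedentary rats (Sed) were placed on a stationary treadmill. All rats of both arms drank water with 8% deuterium oxide, a label for newly made molecules. Whole muscle (SM) was the inner red portion of gastrocnemius, a muscle of the calf. Mitochondria (MT) were captured from the same muscle with an antibody and treated with RNase-A and proteinase-K. The left ventricle (LV) is the main pumping chamber of the heart. Each of 30 rats gave 1 SM and 1 MT library, 15 rats per arm (SM_Sed, SM_ExT, MT_Sed, MT_ExT), and 14 of them gave an LV library, 7 per arm (LV_Sed, LV_ExT).

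A muscle fibre contracts when myosin heads pull on actin filaments, and calcium bound by the troponin complex switches this on. Slow fibres use their own myosin, troponin, tropomyosin and calcium-pump genes in place of the fast forms, contract slowly, resist fatigue and are rich in mitochondria. Much of the slow set is shared with the ventricle of the heart, where some of the genes are used and others are replaced by cardiac forms. In rats the main ventricular myosin is Myh6, and Myh7 is the minor one. The red gastrocnemius is a mixed muscle with slow and fast fibres.

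Among the members, Myh7 (ENSRNOG00000016983) encodes the slow myosin heavy chain, Myl2 (ENSRNOG00000030848) the slow and ventricular regulatory light chain, and Myl3 (ENSRNOG00000020955) the essential light chain of the same myosin. Tnni1 (ENSRNOG00000009073), Tnnt1 (ENSRNOG00000028041) and Tnnc1 (ENSRNOG00000018943) encode the inhibitory, tropomyosin-binding and calcium-binding subunits of slow troponin, and Tpm3 (ENSRNOG00000017441) encodes slow tropomyosin. Atp2a2 (ENSRNOG00000001285) encodes the pump that returns calcium to the sarcoplasmic reticulum, Casq2 (ENSRNOG00000016243) the calsequestrin that stores it there, and Myoz2 (ENSRNOG00000014815) a Z-disc protein that binds calcineurin.

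Promoter sequences are shown for 3 members, which fall on both sides of the contrast between muscle and heart described further on: Tnnt1 was far lower in LV than in SM, and Casq2 and Myoz2 were higher. They come from RefSeq's table for GRCr8, another build than that of the count tables. Of the 10 members, 8 matched that table, and 5 of these had a start site at the 5′ end of the RefSeq gene; the 3 shown are those of the 5 that held any of the motifs searched. Each is the 150 bases before the start, written 5′ to 3′ along the gene's strand, with motif letters in capitals.
Tnnt1: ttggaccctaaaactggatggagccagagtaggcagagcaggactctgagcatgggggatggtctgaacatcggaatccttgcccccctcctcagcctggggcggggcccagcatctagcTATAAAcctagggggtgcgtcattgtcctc
Casq2: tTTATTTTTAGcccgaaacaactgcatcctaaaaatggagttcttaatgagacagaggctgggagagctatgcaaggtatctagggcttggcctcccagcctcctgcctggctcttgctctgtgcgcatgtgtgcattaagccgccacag
Myoz2: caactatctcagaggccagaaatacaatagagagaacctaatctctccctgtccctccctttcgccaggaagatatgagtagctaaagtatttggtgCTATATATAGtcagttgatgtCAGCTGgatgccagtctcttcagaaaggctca

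The Tnnt1 window lies at chr1:78348885-78349034 (plus strand), Casq2 at chr2:192214406-192214555 (plus strand) and Myoz2 at chr2:213852779-213852928 (minus strand). The capitals in Tnnt1 mark a TATA box (TATAAA) 30 to 25 bases before the start. In Casq2 they mark a MEF2 site on the opposite strand, 149 to 140 bases before the start. In Myoz2 they mark a MEF2 site that reads on both strands, 53 to 44 bases before the start, and an E-box (CAGCTG) 32 to 27 bases before it. Of 33469 promoter windows of the same length, 1.03% held the MEF2 site, 8.00% TATAAA and 7.63% CAGCTG on either strand. Both strands were also searched for CATTCC (held by 7.40% of windows) and GGAAA (39.2%), which no window at the 5′ end of a member's gene contained. The matches shown do not overlap one another and describe letters only.

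Levels are given as CPM with only nuclear-encoded genes in the library total (nuclear CPM), so that the large share of reads from the mitochondrial genome does not enter the scale. That share was 22.1 to 35.9% in SM, 12.9 to 95.4% in MT and 39.9 to 50.7% in LV. Total counts per library ran from 19477976 to 39401323 in SM, 530397 to 9988027 in MT and 54645657 to 75758777 in LV. A floor of 3 counts equals 0.115 to 0.226 nuclear CPM in SM, 2.84 to 6.97 in MT and 0.0713 to 0.101 in LV, counting error only. Transcript lengths were not used here, so levels are compared between samples and never between genes. The labelled tissues showed their defining genes: a list of 7 skeletal muscle markers summed to at least 100113 nuclear CPM in every SM library and 8 cardiomyocyte markers to at least 52143 in every LV library. Rats are numbered 2 to 32 in the labels. Whole-muscle results are also given for rats 2 to 16 (14 rats, the earlier range) and 17 to 32 (16 rats, the later range), a split taken from earlier work on these data and not from the labels.

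In whole muscle the 10 genes moved together from rat to rat over a wide range. Myh7 spanned 3841 nuclear CPM in sedentary rat 8 to 24934 in trained rat 10, a 6.49-fold range with a median of 14707 over 30 rats. Myl2 spanned 134 to 1520 (median 650), and Tnnc1, the calcium-binding troponin subunit, 72.0 to 1049 (median 403). Rat 10 was the highest of the 30 rats for 8 of the 10 genes and rat 8 the lowest for 7. The narrowest span was that of Atp2a2, from 840 to 5300 nuclear CPM.

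**Figure D1:**
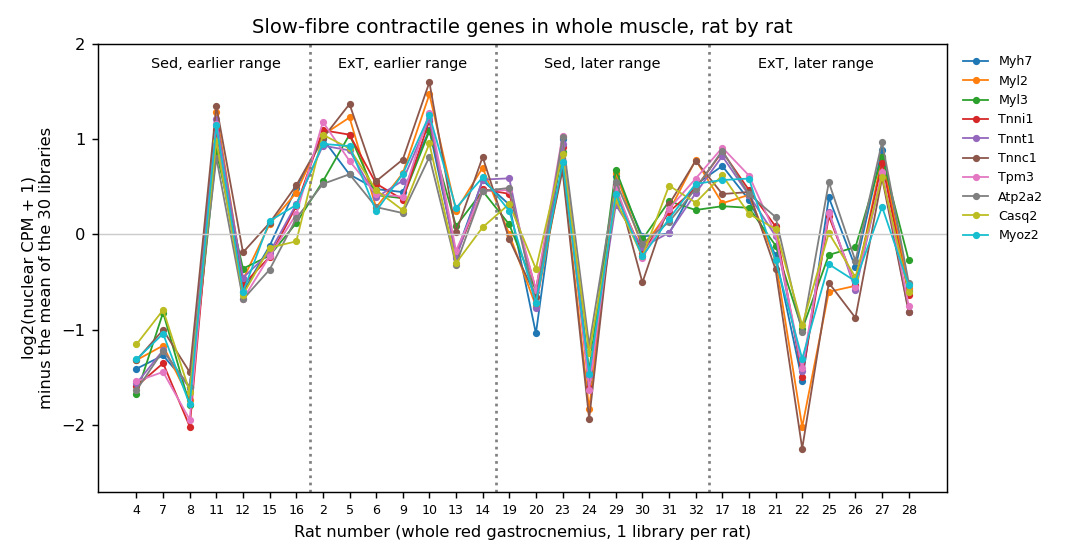
Level of the 10 genes in whole muscle, as log2(nuclear CPM + 1) minus each gene's mean over 30 libraries (vertical axis), for each rat (horizontal axis), grouped by arm and rat-number range with 1 line per gene. The lines run together, with rats 8, 22 and 24 low and rats 10, 11 and 23 high in most genes.

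After the means of the 4 combinations of arm and range were removed, all 45 pairs of members had a Pearson r above 0.8 across the 30 rats (0.923 to 0.993, median 0.953). The genes were measured in the same libraries with the same scaling, and the values describe these libraries without a test. The SD of the centred log2 level was 0.656 for Casq2 to 0.878 for Tnnc1, against a median of 0.182 over 9365 genes with a mean of at least 5 nuclear CPM; among those genes the members ranked 28th to 73rd in spread. In MT the same 45 pairs had a median r of 0.215 (−0.586 to 0.724). In LV, centred on arm alone, they had a median of 0.0982 (−0.750 to 0.794). No pair exceeded 0.8 in MT or LV. Counts in MT were as low as 5 per library for Tnnc1, so counting error enters the MT values. In whole tissue, a smaller share of slow fibres and less RNA per slow fibre cannot be told apart.

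Fast genes stood opposite to this axis with 1 exception. Of 15 listed fast-fibre contractile genes, 12 were measured, and 11 had a negative r with the mean of the members, the lowest being −0.86 for Mybpc2, a fast myosin-binding protein. The exception was Myh2, the myosin of fast oxidative (type IIA) fibres, at 0.74. Across the 30 rats, Myh7 fell as Myh4, the myosin of fast glycolytic (type IIB) fibres, rose (Pearson r = −0.836, Spearman rho = −0.874, permutation p = 1e-05 for each, the smallest that 100000 resamples can give; adjusted p = 3e-05 over 3 relations). It was −0.862 within the 14 earlier rats, −0.811 within the 16 later rats and −0.807 without the 2 most extreme rats. Both genes are parts of 1 total, and Myh4 alone reached 91447 nuclear CPM.

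Myh7 rose with Myh2 (r = 0.708, permutation p = 2e-05, adjusted 3e-05; rho = 0.644, permutation p = 0.00019, adjusted 0.00019). It was 0.851 within the earlier and 0.618 within the later rats, and 0.621 without the 2 most extreme rats. Myh7 also rose with the percent of counts from mitochondrial-genome genes (r = 0.699, permutation p = 4e-05, adjusted 4e-05; rho = 0.664, permutation p = 0.0001, adjusted 0.00015). Here r was 0.853 within the earlier rats and 0.555 within the later rats, and 0.579 without the 2 most extreme rats. These 3 relations were in 1 direction in both ranges of rats.

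**Figure D2:**
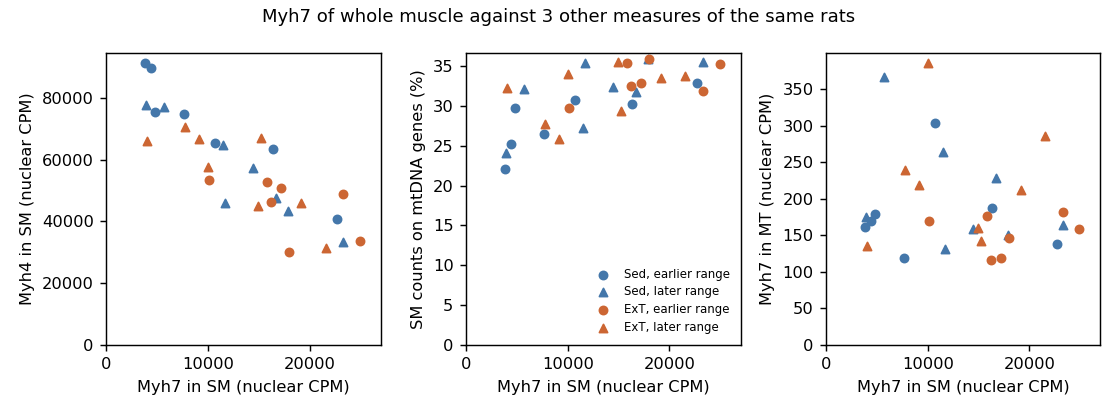
Myh7 in whole muscle (horizontal axis, nuclear CPM) against Myh4 in SM (nuclear CPM), the percent of SM counts on mitochondrial-genome genes, and Myh7 in MT of the same rat (nuclear CPM); each point is 1 of 30 rats, coloured by arm and shaped by range. Myh4 falls (r = −0.836) and the mitochondrial share rises (r = 0.699) with Myh7. For Myh7 in MT, at 68 to 290 counts per library, no such relation was detected (r = −0.114).

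Among genes outside the list, the 6 whose centred log2 levels over the 30 SM libraries were most like the members' mean were Xpo4 (r = 0.969), Pla2g12a (0.968), Myom3 (0.967), Ldhb (0.960), Galnt5 (0.960) and Cryab (0.955). Xpo4 is a nuclear exportin, Pla2g12a a secreted phospholipase, Myom3 an M-band protein of the sarcomere, Ldhb the lactate dehydrogenase subunit typical of oxidative tissue, Galnt5 a glycosyltransferase and Cryab a small heat-shock protein. The median r of the 9355 genes outside the list was 0.184. All 9 measured genes of a list of 11 other slow or oxidative-fibre genes had a positive r, from 0.787 for Sln, a small inhibitor of the calcium pump, to 0.967 for Myom3. Of 30 measured regulators of the slow programme, 18 had a positive r, no larger a share than the 6569 of 9355 genes outside the member list. The highest was 0.950 for Prox1, a transcription factor, and the lowest −0.86 for Sox6, a repressor of slow genes.

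Slow-isoform shares put the same axis in terms of pairs. Of the counts on Myh7, Myh2 and Myh4 together, Myh7 made up 3.88 to 29.3% in SM_Sed (13.9 ± 8.71%, SD, n = 15) and 4.53 to 31.3% in SM_ExT (18.2 ± 7.63%, SD, n = 15). Tnni1 made up 15.4 ± 8.99% of Tnni1 and Tnni2 counts in SM_Sed and 21.4 ± 8.07% in SM_ExT (SD, n = 15 each). Myoz2 made up 21.3 ± 11.6% of Myoz2 and Myoz1 counts in SM_Sed and 27.7 ± 10.3% in SM_ExT (SD, n = 15 each). With all rats pooled, the arms overlapped over most of their range in each of these. In the earlier range Myh7 made up 11.5 ± 8.91% in SM_Sed and 21.8 ± 6.21% in SM_ExT (SD, n = 7 each). Tnni1 made up 12.1 ± 9.48% and 23.7 ± 6.78%, and Myoz2 17.9 ± 12.6% and 34.1 ± 7.61%. In the later range (n = 8 each) Myh7 made up 16.1 ± 8.51% and 14.9 ± 7.61%. Tnni1 made up 18.2 ± 8.06% and 19.3 ± 8.97%, and Myoz2 24.3 ± 10.5% and 22.1 ± 9.18%. The tables matched no gene by the symbols Myh1 and Atp2a1, so type IIX myosin is outside the myosin share and Atp2a2 has no fast partner here. Shares of counts weigh longer transcripts more and are not shares of fibres.

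Training was compared in whole muscle as ExT against Sed. Myh7 ran from 3841 to 23328 nuclear CPM in SM_Sed (median 11463) and from 4006 to 24934 in SM_ExT (median 15836), so the arms overlapped almost fully. Tnni1 ran from 200 to 1741 (median 710) in SM_Sed and from 288 to 1862 (median 1123) in SM_ExT. Casq2 ran from 27.3 to 174 (median 79.7) and from 44.9 to 183 (median 102). The ranges of the arms overlapped for each of these genes, with a lower minimum in SM_Sed than in SM_ExT. Among the members, Myl2 and Tnnc1 went the other way. Their minima were 134 and 72.0 nuclear CPM in SM_ExT (rat 22), against 153 and 89.5 in SM_Sed (rat 24). With edgeR's quasi-likelihood test, 0 of the 10 members passed an adjusted p of 0.05, where 0.206% of 13570 genes were called (28 genes). All 10 log2 fold changes were positive, from 0.28 ± 0.23 (SE) for Casq2 to 0.41 ± 0.28 for Tnni1, with adjusted p from 0.543 to 0.667 (n = 15 per arm). Their median was 0.34, against −0.01 over all genes tested.

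None of the companion lists held a called gene in this comparison. The 12 fast-fibre genes had a median of −0.27, with Myh2 at 0.50 ± 0.16 (adjusted p = 0.18) and Myh4 at −0.38 ± 0.16 (adjusted p = 0.30). The 9 other slow or oxidative-fibre genes had a median of 0.30, the 30 regulators −0.02 and the 12 sarcomere genes common to both fibre types −0.03.

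The 2 ranges of rats gave different values. Among the 7 earlier sedentary rats Myh7 ran from 3841 to 22725 nuclear CPM (median 7642), and among the 7 earlier trained rats from 10086 to 24934 (median 17237). Sedentary rats 4, 7, 8 and 12 lay below every earlier trained rat for all 10 members, and rat 15 did so for Myl2, Myl3, Tnni1, Tpm3, Atp2a2 and Myoz2. Sedentary rat 11 reached the upper end of the trained rats. In the later range, Myh7 ran from 3952 to 23328 (median 13082) in 8 sedentary and from 4006 to 21575 (median 12479) in 8 trained rats, which overlapped throughout.

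**Figure D3:**
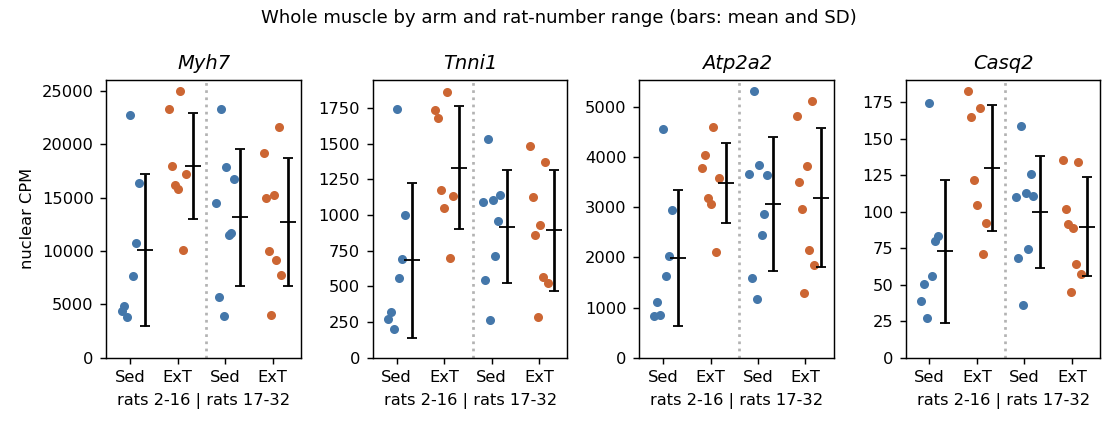
Level of Myh7, Tnni1, Atp2a2 and Casq2 in whole muscle (vertical axis, nuclear CPM) by arm for rats 2 to 16 and rats 17 to 32; points are rats, and bars give the mean and SD. In rats 2 to 16 most sedentary rats lie below the trained rats, whereas in rats 17 to 32 the arms overlap.

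Within the earlier range the members' log2 fold changes were 0.75 ± 0.33 (Atp2a2) to 0.92 ± 0.43 (Tnni1), and adjusted p ran from 0.149 (Myl3) to 0.254 (Tnnt1). No member was called, beside 2.95% of 13423 genes (396) in that comparison (edgeR). Within the later range they were −0.32 ± 0.41 (Tnnc1) to 0.02 ± 0.31 (Atp2a2), also with 0 called, beside 0.00732% of 13662 genes (1 gene). The difference of the training effect between ranges was −0.73 ± 0.47 (Atp2a2) to −1.19 ± 0.59 (Tnnc1), with edgeR adjusted p from 0.328 to 0.521. In that interaction edgeR called 0% of 13570 genes (0 genes, with 1807 at an unadjusted p under 0.05; DESeq2 called 56), and no member was among either set. Thus a difference between the ranges was not shown for these genes.

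Other measures also differed between arms in the earlier range. The mitochondrial-genome share was 28.2 ± 3.76% in earlier SM_Sed and 33.3 ± 2.27% in earlier SM_ExT (SD, n = 7 each), against 31.8 ± 4.19% and 31.5 ± 3.42% in the later rats (n = 8 each). The nerve and Schwann cell list, 5 of 5 genes measured and none at 0, summed to 6.37 to 88.8 nuclear CPM (median 35.4) in earlier SM_Sed and 23.9 to 193 (median 106) in earlier SM_ExT. The fibroblast list, 5 of 5 genes and none at 0, summed to 2336 to 7003 (median 3540) and to 2113 to 3448 (median 2212). The medians of the cardiomyocyte list were 37.7 and 74.5, of the skeletal muscle list 158508 and 129623, and of the endothelial list 639 and 768. The nerve list had the higher median in trained rats of the later range too (45.0 nuclear CPM in SM_Sed and 83.4 in SM_ExT, with Chat at 0 in the latter), where the members' fold changes were near 0 or negative. Their part in the members' values was not tested.

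Between the ranges themselves, with arm in the model, 0 of 10 members differed, beside 13% of 13570 genes. Values of later against earlier rats ran from −0.58 ± 0.31 for Tnnc1 to 0.22 ± 0.24 for Atp2a2 (edgeR adjusted p from 0.235 to 0.930). Of the 12 fast-fibre genes 5 fell, led by Tnnc2, the fast calcium-binding troponin subunit (−0.55 ± 0.08, adjusted p = 4.44e-05), and 0 rose. Among the 30 regulators, Esrra, a nuclear receptor of mitochondrial gene programmes, rose (0.72 ± 0.09, edgeR adjusted p = 3.01e-06). The 3 that fell were Hdac5 (−0.27 ± 0.07), Nfatc2 (−0.24 ± 0.08) and Ppargc1a (−0.17 ± 0.06). The other 26 were not called, so the share called was close to the 13% of all genes.

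Training values in MT and LV were smaller in size for most members than those of SM over all 30 rats. The LV rats were of the later range except 1 per arm, and in that range the members' median in SM was −0.14. Against SM of the same 14 rats, the training value in LV was the more positive for 7 members and the more negative for 3 (median difference 0.07). In MT, Myh7 ran from 118 to 367 nuclear CPM in MT_Sed (median 169) and from 116 to 386 in MT_ExT (median 169). In LV it ran from 2879 to 6050 in LV_Sed (median 5571) and from 4044 to 7669 in LV_ExT (median 5211). The arms overlapped in both. MT fold changes were −0.11 ± 0.11 (Atp2a2) to 0.30 ± 0.17 (Tnnc1) on the log2 scale, and LV ones −0.30 ± 0.39 (Tnni1) to 0.20 ± 0.19 (Myh7).

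No member was called in either. edgeR called 0% of 19281 genes in MT (912 at an unadjusted p under 0.05; DESeq2 called 0) and 0% of 14488 in LV (855 at an unadjusted p under 0.05; DESeq2 called 1). In LV, Casq2 had 0.13 ± 0.06 (edgeR adjusted p = 0.804), with 1059 to 1293 nuclear CPM in LV_Sed and 1117 to 1343 in LV_ExT. Only 1 rat per arm in LV belonged to the earlier range, so LV has no value of its own there. Without those 2 rats Casq2 had 0.17 ± 0.07 (edgeR adjusted p = 0.363).

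**Figure D4:**
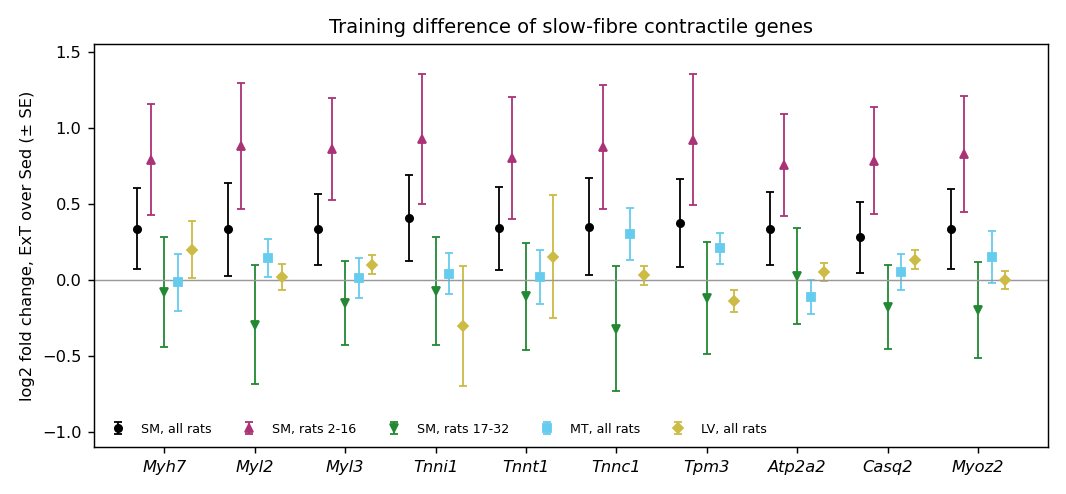
Log2 fold change of ExT over Sed (vertical axis, bars are SE) for each member in SM over all rats, SM in rats 2 to 16, SM in rats 17 to 32, MT and LV. Values lie from 0.28 to 0.41 in SM overall and from 0.75 to 0.92 in rats 2 to 16, and none passed the adjusted threshold.

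The training effect was also compared between sample types. For MT against SM the members' difference was −0.49 ± 0.29 (Atp2a2) to −0.09 ± 0.51 (Tnnc1), 0 called, beside 0.0181% of 27684 genes (edgeR, 5 genes). For LV against SM of the same 14 rats it was −0.39 ± 0.46 (Tnni1) to 0.20 ± 0.19 (Casq2), 0 called, beside 0% of 15049 genes (edgeR; 687 at an unadjusted p under 0.05, DESeq2 called 1). These comparisons use the SM libraries of the comparisons above and are no separate evidence.

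In the mitochondrial fraction the slow genes were far lower than in whole muscle. Myh7 had 116 to 386 nuclear CPM in MT (median 169), below the 3841 of the lowest SM library. Atp2a2 had 65.8 to 146 (median 89.3) and Tnnt1 16.3 to 106 (median 51.0). MT lay below SM without overlap for 9 members. Casq2 was the exception, at 29.95 to 67.9 in MT and 27.3 to 183 in SM, with MT lower in 27 of 30 rats. The share of all genes without such overlap was not computed, so the count of 9 cannot be called particular to these genes. The other members had MT medians from 21.6 (Myoz2) to 68.2 nuclear CPM (Tpm3).

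All 10 members were lower in MT than in SM in both arms (edgeR). In Sed rats 94.8% of 22842 genes were called, 33.1% as lower, and in ExT rats 94.3% of 21312, 35% as lower. In Sed the log2 fold changes ran from −3.12 ± 0.24 (Casq2, adjusted p = 2.45e-13) to −8.02 ± 0.33 (Myh7, adjusted p = 4.38e-21). In ExT they ran from −3.33 ± 0.20 (Casq2) to −8.36 ± 0.27 (Myh7).

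The median of all genes stood at 1.81 in Sed and 1.31 in ExT, so relative to it Casq2 lay at −4.93 and −4.64 and Myh7 at −9.83 and −9.67. With the nuclear-encoded total as library size, the median of all genes in Sed became 3.94, 85.9% of genes were called higher and 10.2% lower, and the members ranged around a median of −4.49. Casq2 was then −1.02 ± 0.25. With the main scaling it was −1.54 ± 0.25 after thinning all libraries to 1 total count. That total includes mitochondrial-genome reads, so nuclear-encoded depth stayed unequal. In ExT that scaling gave a median of 3.34, 84.4% higher and 11.4% lower, with Casq2 at −1.29 ± 0.20 (−1.17 ± 0.24 after thinning). RNA input was 10 ng for MT and 50 ng for SM, which cannot be told apart from the fraction itself.

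The companion lists of contractile genes were lower in MT too, with 1 exception. All 12 fast-fibre genes were lower in MT in Sed rats (median −8.64), as were all 9 other slow or oxidative-fibre genes (median −4.78), against −6.58 for the members. The largest falls among the fast genes were those of Mylpf, the fast regulatory light chain (−10.04 ± 0.36), Myh4 (−9.59 ± 0.28), Tnnc2 (−9.36 ± 0.25) and Myl1, the fast essential light chain (−9.35 ± 0.27). Of the 12 common sarcomere genes 11 were lower and 1 was higher, Nebl, a cardiac relative of nebulin (2.89 ± 0.11).

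Isoform shares also differed between MT and SM. Myh6, the main myosin of the rat ventricle, had 2.21 to 21.3 nuclear CPM in SM and 94.1 to 171 in MT. Myh7 accordingly made up 99.9 ± 0.0314% of Myh7 and Myh6 counts in SM_Sed (SD, n = 15) but 56.7 ± 9.14% in MT_Sed and 58.6 ± 9.17% in MT_ExT (SD, n = 15 each). Among slow and fast partners, Myl2 made up 6.77 ± 4.50% of Myl2 and Mylpf counts in SM_Sed and 57.3 ± 14.2% in MT_Sed (SD, n = 15 each). That was the largest rise in percentage points among these partners. The smallest was that of Myh7 in Myh7, Myh2 and Myh4 counts, from 13.9 ± 8.71% to 28.1 ± 3.52% (SD, n = 15 each). The MT shares rest on few counts, with 17 to 45 for Myl2 per MT_Sed library. Despite smaller totals, MT libraries had 14852 to 21291 nuclear-encoded genes with at least 10 counts, against 13149 to 13950 in SM. How far this wide spread of few reads sets the MT shares was not tested, so they cannot be read as isoform content of mitochondria.

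Markers of other cells did not share 1 direction between MT and SM. The cardiomyocyte list, 8 of 8 genes measured and none at 0, summed to 600 to 817 nuclear CPM in MT_Sed and 21.8 to 96.0 in SM_Sed. With edgeR, 7 of its genes were called higher in MT, beside 61.7% of 22842 genes, and 1, Actc1, lower. These calls use another scaling than the nuclear CPM sums. The adipocyte list, 4 of 4 genes and none at 0, summed to 98.7 to 180 in MT_Sed and 0.192 to 29.5 in SM_Sed. The skeletal muscle list, 7 of 8 genes, summed to 973 to 3126 in MT_Sed against 100113 to 176372 in SM_Sed. The endothelial list, 6 of 6 genes, summed to 509 to 736 (median 553) in MT_Sed and 409 to 917 (median 639) in SM_Sed, which overlapped. Under edgeR's scaling all 6 of its genes were called lower in MT (median log2 fold change −2.04), beside 33.1% of all genes. Their part in the members' MT levels was not tested.

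No relation was detected between a rat's slow-gene level in whole muscle and that in its mitochondrial fraction. MT counts per library were few, 5 to 36 for Tnnc1 and 6 to 28 for Myoz2. Counting error therefore limits the r that could be seen, and a relation is not excluded. Over 30 rats, r between SM and MT levels ran from −0.215 (Atp2a2) to 0.224 (Casq2), median 0.00981. Of 22 relations computed (10 members and 12 fast genes), none of the members passed (smallest permutation p = 0.232 for r, adjusted 0.845; rho from −0.285 to 0.251, smallest adjusted p = 0.637). For Myh7, r was −0.114, with −0.147 in the earlier and −0.084 in the later rats and −0.171 without the 2 most extreme rats. Within the earlier and later rats it was 0.354 and 0.0835 for Casq2, 0.581 and −0.216 for Tpm3, 0.144 and −0.453 for Myoz2, and −0.166 and −0.441 for Atp2a2. Without the 2 most extreme rats, r for Atp2a2 was −0.451. Signs differed between the ranges for some members, and these within-range values carry no test.

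The ventricle divided the members into 6 that were higher than in red gastrocnemius and 4 that were lower. LV was compared with SM of the same 7 rats per arm. Of 14367 genes tested in Sed rats 78.7% passed, 40% as higher in LV and 38.6% as lower, and of 14338 in ExT rats 79.3%, 39.7% as higher and 39.5% as lower (edgeR). All 10 members were called in both arms, with the same direction in each. LV libraries were made with another ribosomal-depletion kit and from 100 ng of RNA, which cannot be told apart from tissue.

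Higher in LV were both myosin light chains, the calcium-binding troponin subunit, the calcium pump and store, and the Z-disc protein. Myl2 ran from 325 to 942 nuclear CPM (median 648) in SM and from 8303 to 10613 (median 10201) in LV of the 7 Sed rats, a log2 fold change of 3.34 ± 0.19 (edgeR adjusted p = 1.01e-11). Casq2 ran from 68.2 to 126 (median 110) in SM and from 1059 to 1293 (median 1134) in LV, or 2.998 ± 0.12 (edgeR adjusted p = 9.33e-15). For both genes every LV library lay above every SM library of these rats.

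Tnnc1 rose by 2.14 ± 0.18 on the log2 scale, Atp2a2 by 1.64 ± 0.15, Myl3 by 0.93 ± 0.13 and Myoz2 by 0.69 ± 0.14 (edgeR adjusted p from 5.78e-09 to 0.000141). Myoz2 had 265 to 632 nuclear CPM in SM and 1052 to 1221 in LV of these Sed rats. None of these 4 overlapped between tissues in either arm. The share of all genes without overlap was not computed, so this separation, like that of Myl2 and Casq2, cannot be called particular to the members. The log2 fold changes of Tnnc1, Atp2a2, Myl3 and Myoz2 in ExT rats were 2.26 ± 0.25, 1.48 ± 0.18, 1.00 ± 0.14 and 0.69 ± 0.18. Those of Myl2 and Casq2 were 3.45 ± 0.22 and 3.18 ± 0.16.

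Lower in LV were the slow forms of the other troponin subunits, slow tropomyosin and Myh7. Tnnt1 ran from 930 to 2386 nuclear CPM (median 1966) in SM and from 0.120 to 0.689 (median 0.451) in LV of the 7 Sed rats, a log2 fold change of −12.48 ± 0.31 (edgeR adjusted p = 1.03e-15). Tnni1 ran from 543 to 1138 (median 998) in SM and from 0.822 to 5.37 (median 2.22) in LV, or −9.08 ± 0.36. Over all 14 LV libraries Tnnt1 had 4 to 30 counts and Tnni1 29 to 226, so both were above the floor of 3 counts in each library.

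Tpm3 had 39.0 to 53.1 nuclear CPM in LV (median 45.7) and 1012 to 2270 in SM of these Sed rats (−5.82 ± 0.17). Myh7 had 2879 to 6050 in LV (median 5571) and 5658 to 17864 in SM (median 14450), or −1.98 ± 0.22 (edgeR adjusted p = 2.24e-07). Its Sed ranges overlapped, with LV higher in 1 of 7 rats; in ExT rats it was −1.91 ± 0.21 and LV was lower in 7 of 7.

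**Figure D5:**
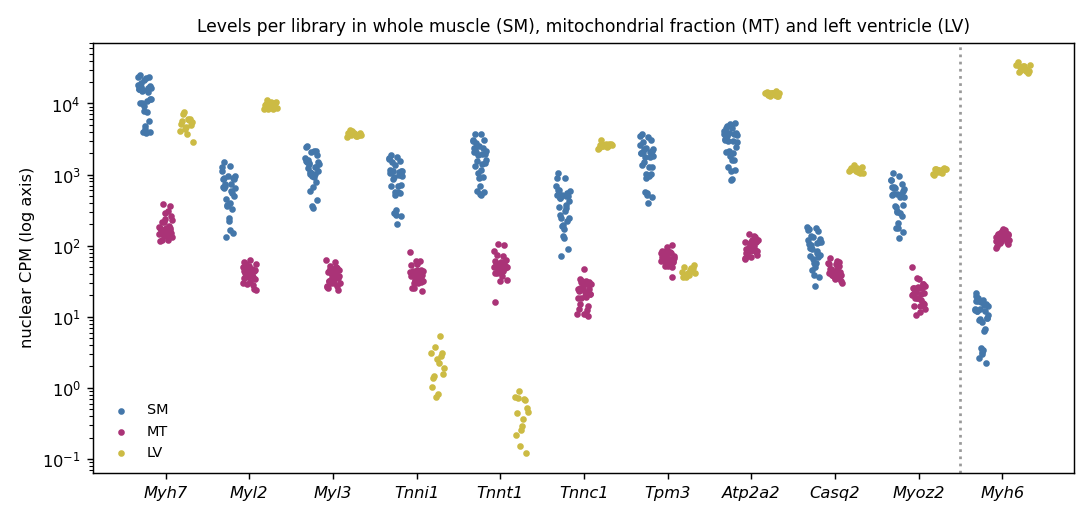
Level of each member and of Myh6 per library (vertical log axis, nuclear CPM) in SM (30 libraries), MT (30) and LV (14). Tnni1 and Tnnt1 fall to 5.37 nuclear CPM or less in LV, Myl2, Casq2, Tnnc1 and Atp2a2 lie above SM there, and MT levels of all members lie at 386 or less.

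The cardiac partners of Myh7, Tnni1 and Tnnt1 were abundant in LV. Myh6 had 27234 to 38018 nuclear CPM there, and Myh7 made up 14.2 ± 3.84% of Myh7 and Myh6 counts in LV_Sed and 14.6 ± 3.92% in LV_ExT (SD, n = 7 each). Tnni3, the cardiac inhibitory troponin subunit, had 3137 to 3946 nuclear CPM in LV and at most 0.913 in SM. Tnnt2, the cardiac tropomyosin-binding subunit, had 3884 to 4843 in LV and 1.93 to 9.94 in SM. Myh6 and Myh7 are near-identical neighbours, and how reads shared between them were counted is not given in the sources used here, so both levels are uncertain to that extent.

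Of the companion lists, all 12 fast-fibre genes were lower in LV of Sed rats. Tpm1, which the heart also uses, fell least (−1.45 ± 0.11), and Myh4 had 0 to 7 counts in each LV library. Of the 9 other slow or oxidative-fibre genes 7 were lower, led by Mybpc1, the slow myosin-binding protein (−13.92 ± 0.76), Mb, myoglobin, was higher (1.22 ± 0.11), and Csrp3 did not pass (0.18 ± 0.10, edgeR adjusted p = 0.12). Among the 30 regulators 3 were higher in LV, namely Rcan1 (1.02 ± 0.27), Prox1 (0.93 ± 0.12) and Esrra (0.72 ± 0.13), and 24 were lower. With the nuclear-encoded total as library size 62.5% of all genes were called higher and 21.6% lower in Sed rats, and the median of all genes moved from 0.04 to 0.59. In ExT rats that scaling gave 59.6% and 23.7%, with a median of 0.50. The 6 and 4 members kept their directions and calls under it in both arms.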

How the data were processed

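Whole-number counts per gene, not normalized, were deposited by the authors in 3 tables (SM, MT, LV) and used as deposited. The submitters' processing notes name FastQC 0.74, cutadapt 4.6, STAR 2.7.11a, HTSeq and the build mRatBN7.2. Strand setting and annotation version are not given in the sources used here, so overlapping or antisense genes cannot be told apart. Libraries were grouped by their titles, which also give the rat. SM, MT and LV of a rat are paired by animal; over the members, the correlation of same-rat SM and MT levels was −0.215 to 0.224. Each rat gave 1 library per sample type, and no 2 libraries of a group agreed within sampling noise.

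Groups were compared with the quasi-likelihood test of edgeR 4.0.16 (R 4.3.3; TMM, filterByExpr, robust), each on its own libraries, with Benjamini-Hochberg adjustment over all genes tested and a threshold of 0.05. All 10 members passed the filter in each of the 11 comparisons. Levels and correlations used numpy 2.4.6, pandas 2.3.3 and scipy 1.17.1, on log2(nuclear CPM + 1), with two-sided permutation tests of 100000 resamples. Correlations between genes and spreads were taken after centring on arm and range, or on arm alone in LV. The same-rat and Myh7 relations were not centred. Alternatives were RLE factors, nuclear-encoded totals, no filter, DESeq2 1.42.0, range as covariate, each range alone, the rat as block and thinned counts. The training fits were also run on simulated counts with changes planted in randomly drawn genes, which does not measure power for the members. The members, ranges and lists were chosen with earlier results of these data known. Text names all members, their partners, up to 4 called genes per list by size of change and the 6 genes most like the members.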

Additional observations from a re-analysis of the deposited data

Results flagged for a closer look

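In 22 sets of 7 LV libraries (10 members and the Myh7 share of Myh7 and Myh6, in each arm), 2 held a library far from the rest by Dixon's ratio; chance flags about 1 in 20 such groups. In LV_ExT, Tnnc1 was 3017 nuclear CPM in rat 25, and the next highest library had 2603 and the lowest 2317. In LV_ExT, Tpm3 was 50.4 nuclear CPM in rat 18, and the next highest library had 42.0 and the lowest 35.7; its ratio of 0.569 barely passed the critical value of 0.568.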

How the results depend on the processing

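The number of members called was the same as reported in all 66 alternative fits of the 11 comparisons. Of 660 member values under alternatives, 635 kept direction and side of the threshold and 25 changed sign, none of them called; the cause was not tested. In SM with the later rats only, the log2 fold changes of training were −0.074 (Tnni1), −0.20 (Myoz2), −0.18 (Casq2), −0.081 (Myh7), −0.12 (Tpm3), −0.32 (Tnnc1), −0.16 (Myl3), −0.11 (Tnnt1) and −0.30 (Myl2). In MT they were 0.048 (Atp2a2), −0.0062 (Myoz2), −0.049 (Casq2) and 0.13 (Myh7) in the later rats and −0.22 (Myl3) and −0.039 (Myl2) in the earlier rats. In LV they were 0.023 (Myoz2) and −0.046 (Tnnt1) in the later rats and −0.017 (Tnnc1) and −0.029 (Myl2) with nuclear-encoded totals. For the training effect of LV against SM, nuclear-encoded totals gave −0.074 (Myoz2), −0.0083 (Myh7), −0.0037 (Myl3) and −0.043 (Tnnt1). For that of MT against SM, Tnnc1 was 0.0039 with range as covariate.

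With the replicate block, which pairs the libraries of a rat, Tnnc1 was 0.080 in that last comparison; the other 59 of 60 member values kept direction and call. Counts over all genes moved for training in SM: 48 with nuclear-encoded totals (48 higher, 0 lower, against 25 and 3), 137 with DESeq2, 45 with range as covariate, 396 in the earlier and 1 in the later rats. For the training effect of MT against SM, edgeR with the replicate block called 3 genes and DESeq2 called 28, against 5. DESeq2 called 1 gene for training in LV, 1 for the training effect of LV against SM and 56 for that between ranges, against 0 in each. For later against earlier rats, nuclear-encoded totals gave 9.42% higher and 3.99% lower, against 6% and 6.99%. Thinning every library to the smallest total left 6474 genes called between MT and SM in Sed and 4303 in ExT, with fewer genes tested. Depth limits MT most: 5 to 290 counts per member and library.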
